A study of Arabidopsis thaliana with 3 samples.

Results

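WRKY transcription factors are one of the large families of plant DNA-binding proteins. In the table of RNA levels in Arabidopsis roots, the family was taken as every listed gene whose name is WRKY or ATWRKY followed by a number, which gave 70 genes of the 33446 listed. The roots came from 14-day-old Arabidopsis thaliana seedlings of the col-0 ecotype, grown on vertical agar plates in long days. The plates held diluted Murashige and Skoog medium. All of the plants carried INTACT, a transgene under the constitutive 35S promoter that places a biotinylated, GFP-tagged protein on the nuclear envelope so that nuclei can be purified. The promoter is not limited to a cell type, and the labels do not say which transformed line each library came from. RNA of whole roots was sequenced in 3 libraries of this single condition, with no plants lacking the transgene, no leaves and no treatment among the samples analysed here. Whether the single deposited column holds the 3 libraries together or 1 of them is not given in the sources used here. With 1 column, no gene has a spread between libraries, no level below carries an SD and no difference between conditions could be tested. In a whole organ, RNA that is rare in every cell and RNA that is abundant in a few cells cannot be told apart.

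A WRKY protein binds DNA through a domain of conserved residues that opens with the heptapeptide WRKYGQK and ends in a zinc finger. The domain recognises the W-box, a short element with the core TTGAC that is common in promoters of defence genes and of WRKY genes themselves. Family members are known as activators and repressors in immunity, senescence, heat and drought responses, and in roots also in phosphate nutrition, root hair and lateral root formation. Proteins with a pair of WRKY domains form group I, those with a single domain and the common type of zinc finger form groups IIa to IIe, and those with an altered finger form group III.

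The values are RPKM, read counts scaled by gene length and by library size, and levels of different genes are compared here on this length-scaled unit. A gene was called expressed above 1 RPKM. The spacing of the lowest values in the table corresponded to a single set of about 118729666 counted reads. At this size 64.6% of 4302 low values lay within 0.05 of a whole read. A size not fitted to the values would give 10% by chance, whereas this size was chosen for a high share. From this size and the exon lengths of TAIR10.1, the reads behind each member, rounded to whole reads, and a 95% exact Poisson interval were estimated. The annotation behind the deposited values is not given, so reads, floors and intervals are approximate. These intervals cover counting error only, and variation between plants and between libraries is not in them. All 12 root genes checked were above 1 RPKM, as were 68.4% of nuclear protein-coding genes. They ranged from 3.94 for PLT2, a factor of the root stem cell niche, to 4958 for PYK10, a beta-glucosidase. All 4 stomatal genes were below 0.1 RPKM and all 5 flower and seed genes were at most 0.352 RPKM. Of 7 genes of green tissue, 5 were above 1 RPKM. The highest, PSBO1 at 29.6 RPKM, stood above root genes such as SCR at 11.4 RPKM. The part of green tissue in the WRKY values was not tested.

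Of the 70 WRKY genes, 57 (81.4%) were expressed in roots, beside 56% of all listed genes and 68.4% of nuclear protein-coding genes. A further 11 lay above 0 and at most at 1 RPKM, and 2, WRKY64 and WRKY68, were listed at 0, which is 2.86% of the family beside 21% of all listed genes. The median of the family was 5.57 RPKM with quartiles of 1.60 and 15.96, and the median of all listed genes was 2.21 RPKM. Above 10 RPKM stood 27 members (38.6%), beside 28.8% of all listed genes. Nuclear protein-coding genes were nearer to the family than all listed genes, with 35.6% above 10 RPKM, 10.3% at 0 and a median of 4.88 RPKM. The highest 10% of listed genes, above 36 RPKM, held 6 members (8.57%), a share near that of the table. Among expressed genes alone the order was the other way round, with a median of 9.35 RPKM for the 57 WRKY genes and 10.5 RPKM for the 18729 expressed genes of the table. The 70 genes together held 0.137% of the summed RPKM. For the names of the other big regulator families, 74 of 115 MYB genes (64.3%) and 57 of 80 NAC genes (71.2%) were above 1 RPKM, with medians of 2.38 and 3.27 RPKM. These shares are descriptions of gene lists in a single column and were not tested against each other.

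**Figure D1:**
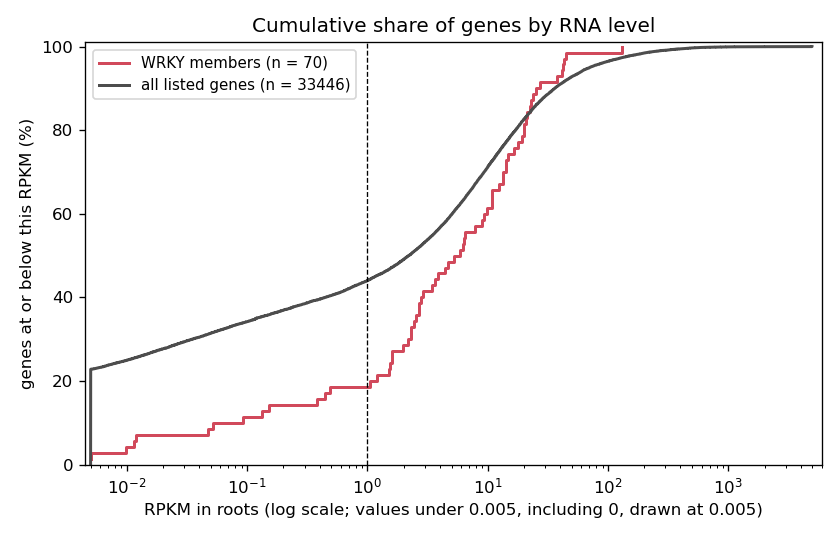
Cumulative share of genes (vertical axis, %) at or below a given RPKM in roots (horizontal axis, log scale) for the 70 WRKY members and for all 33446 listed genes, with a dashed line at 1 RPKM. The WRKY curve lies below that of all genes at 1 RPKM, where 57 members are above the line, and crosses it at the high end, where 6 members reach the highest 10% of listed genes.

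WRKY65 (AT1G29280; chr1:10236337-10237990 in TAIR10.1, plus strand) was the highest member. Its level was 131 RPKM (counting interval 129 to 133), rank 882 of all listed genes, and held 15.7% of the summed RPKM of the family. The next gene, WRKY6, stood 2.92-fold lower at 44.9 RPKM (44.1 to 45.7). WRKY6 is a regulator of senescence and defence that also represses the phosphate exporter gene PHO1. It was followed by WRKY36 with 42.8 RPKM, known from light and UV-B control of hypocotyl growth, and by WRKY17 with 42.5 RPKM, a negative regulator of basal resistance to bacteria. The intervals of WRKY36 (41.97 to 43.7) and WRKY17 (41.5 to 43.4) overlapped, so that their order is not resolved by the counts.

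WRKY33, a substrate of MAP kinases that drives camalexin synthesis against necrotrophic fungi, had 41.1 RPKM, and WRKY25, its relative in heat and bacterial responses, had 37.7 RPKM. Their intervals of 40.3 to 41.9 and 36.9 to 38.5 did not overlap. WRKY11, which acts with WRKY17 in basal resistance, stood at 27.1 RPKM. WRKY72, a factor of basal defence, was listed at 25.2 RPKM and WRKY39, linked to heat responses, at 23.98 RPKM. WRKY45, an activator of the phosphate transporter gene PHT1;1, had 22.8 RPKM. WRKY7, a calmodulin-binding negative regulator of defence, and WRKY69 closed the 12 highest genes with 22.3 and 21.3 RPKM. These 12 genes together held 57.9% of the summed RPKM of the family, and groups I, IIb, IIc, IId and IIe were all among them.

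Below the first ranks the members formed a nearly continuous series. Of the 69 steps between neighbours in the ranking, 53 joined genes whose counting intervals overlapped and 16 separated them. Among the steps without overlap were those between WRKY65 and WRKY6 and between WRKY58 at 1.05 RPKM (0.921 to 1.19) and WRKY55 at 0.488 RPKM (0.377 to 0.614). No member lay between the values of WRKY58 and WRKY55, so that the number of expressed genes did not depend on the exact threshold in that range, and only the interval of WRKY58 contained 1 RPKM. The members above 1 RPKM rested on 196 to 24157 reads each, a counting error of 0.643% to 7.14%.

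**Figure D2:**
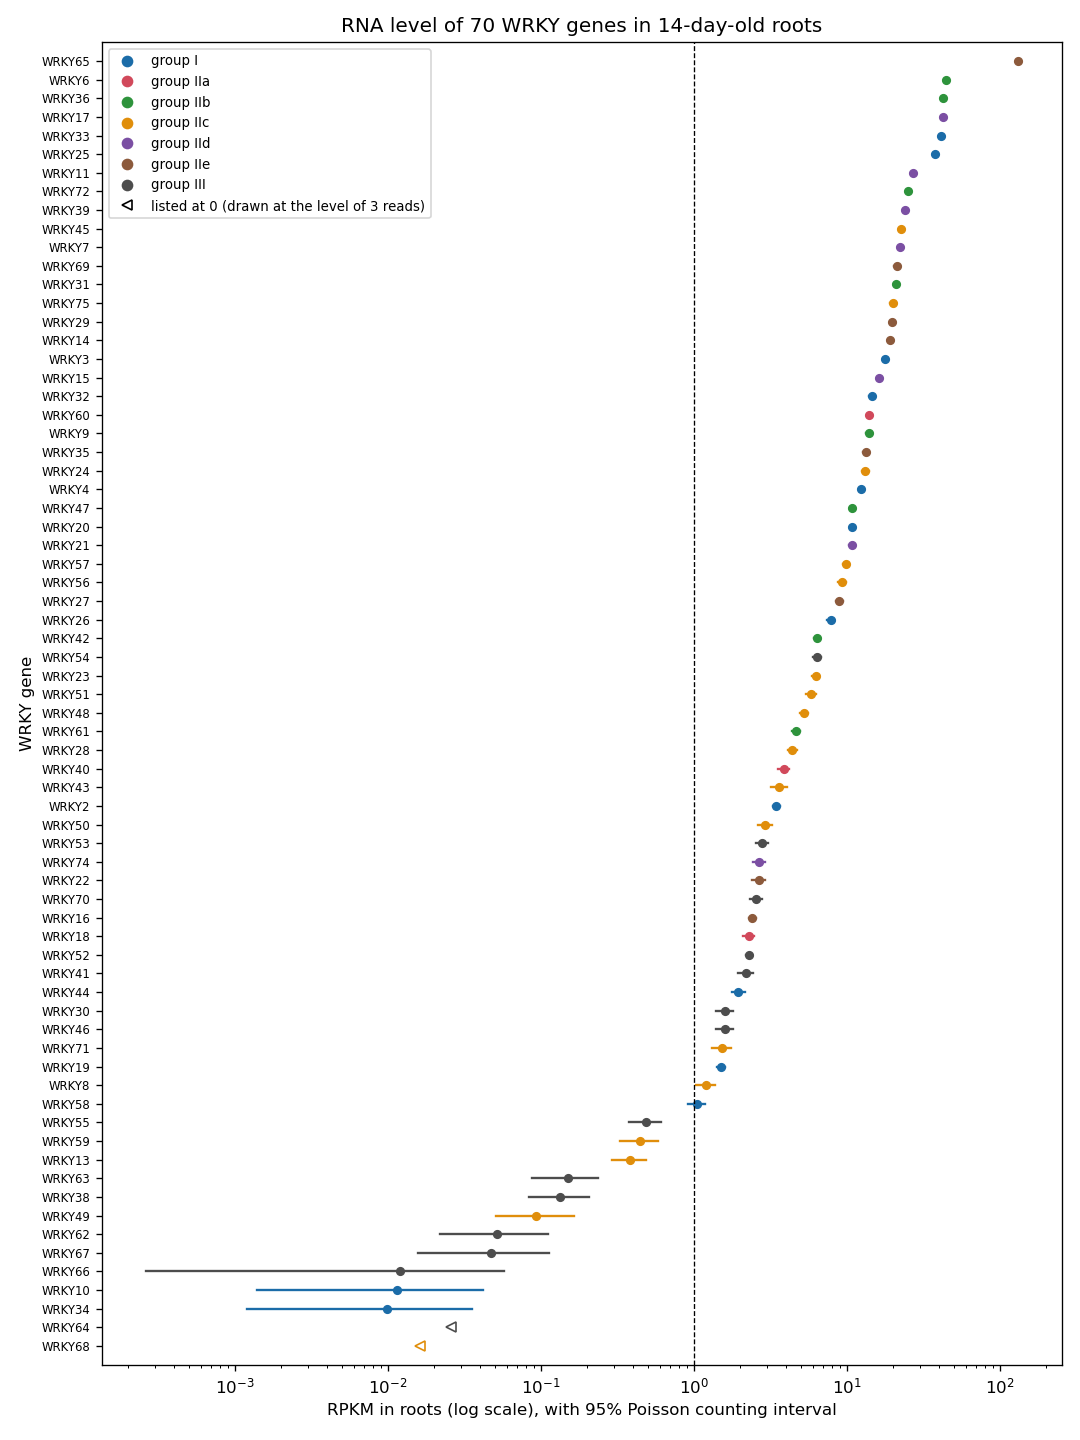
RPKM in roots (horizontal axis, log scale) of the 70 WRKY genes in order of level, coloured by group, with 95% Poisson counting intervals as lines and a dashed line at 1 RPKM. WRKY65 stands apart at 131 RPKM, and WRKY64 and WRKY68, listed at 0, are drawn as open triangles at the level of 3 reads.

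The 13 members that were not expressed fell into few groups, with 7 in group III, 4 in group IIc and 2 in group I. WRKY55, WRKY59 and WRKY13 had 0.488, 0.445 and 0.382 RPKM. WRKY13 is known from sclerenchyma and lignin formation in stems. WRKY63, a factor of abscisic acid responses, had 0.151 RPKM, WRKY38 had 0.133 RPKM, WRKY49 had 0.0928 RPKM, WRKY62 had 0.0519 RPKM and WRKY67 had 0.0476 RPKM. WRKY38 and WRKY62 are partners that act against salicylic acid dependent defence. WRKY66, WRKY10 and WRKY34 rested on 1 or 2 reads each and were listed at 0.0119, 0.0116 and 0.00989 RPKM. WRKY10 is known as MINI3, a regulator of endosperm growth in seeds, and WRKY34 acts in pollen.

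The zero values carry a limit. For WRKY64 a count of 0 allows up to 0.0258 RPKM and for WRKY68 up to 0.0164 RPKM, taking 3 reads as the floor. WRKY66, WRKY10 and WRKY34 lay under their own floors of 3 reads, and differences among these 5 genes were not detectable at this depth. Loss of reads to repeated sequence could be measured from the genome. For 69 of the 70 members no stretch of 61 bp, the read length, of their exons occurred elsewhere in TAIR10.1, WRKY64 and WRKY68 included. The exception was WRKY40, with 2.21% of its 61 bp stretches. WRKY68 shares 8.28% of its exon bases with AT3G62350 on the same strand, which was also listed at 0.

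The genes on the lower end of group III lie partly side by side. WRKY67 (AT1G66550) spans 24828502 to 24829660 on chromosome 1 of TAIR10.1, WRKY64 (AT1G66560) follows 3857 bp downstream from 24833518 to 24834801, and WRKY63 (AT1G66600) lies 13518 bp further, from 24848320 to 24849543, all on the plus strand. The RPKM of these 3 genes was 0.0476, 0 and 0.151. In the other cluster, WRKY54 and WRKY55 are divided by 919 bp on chromosome 2 and lie on opposite strands. There the levels differed: WRKY54, a negative regulator of leaf senescence that acts with WRKY70, had 6.36 RPKM (5.99 to 6.75), the highest value of group III, while WRKY55 had 0.488 RPKM.

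Levels differed by group, and these differences were not tested. For comparison, 56% of all listed genes and 68.4% of nuclear protein-coding genes were expressed. Above 10 RPKM were 28.8% and 35.6% of them. In group IId, the calmodulin-binding WRKY proteins, all 7 genes were expressed and 6 were above 10 RPKM, with a median of 22.3 RPKM and WRKY74 at 2.67 RPKM as the lowest. All 8 genes of group IIb were expressed, from 4.69 RPKM for WRKY61 to 44.9 RPKM for WRKY6, with a median of 17.5 RPKM. Group IIe, with 8 of 8 expressed, had a median of 16.3 RPKM and ranged from 2.42 RPKM for WRKY16 to 131 RPKM for WRKY65. In group I, 11 of 13 were expressed with a median of 7.90 RPKM, and WRKY10 and WRKY34 stood apart from the rest at about 0.01 RPKM. Group IIc, the biggest group, had 13 of 17 genes expressed and a median of 4.42 RPKM. Group III was lowest, with 7 of 14 expressed, a median of 1.04 RPKM and 0 genes above 10 RPKM. The ranges of the groups overlapped, and groups IIa and III had no member among the 12 highest genes.

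**Figure D3:**
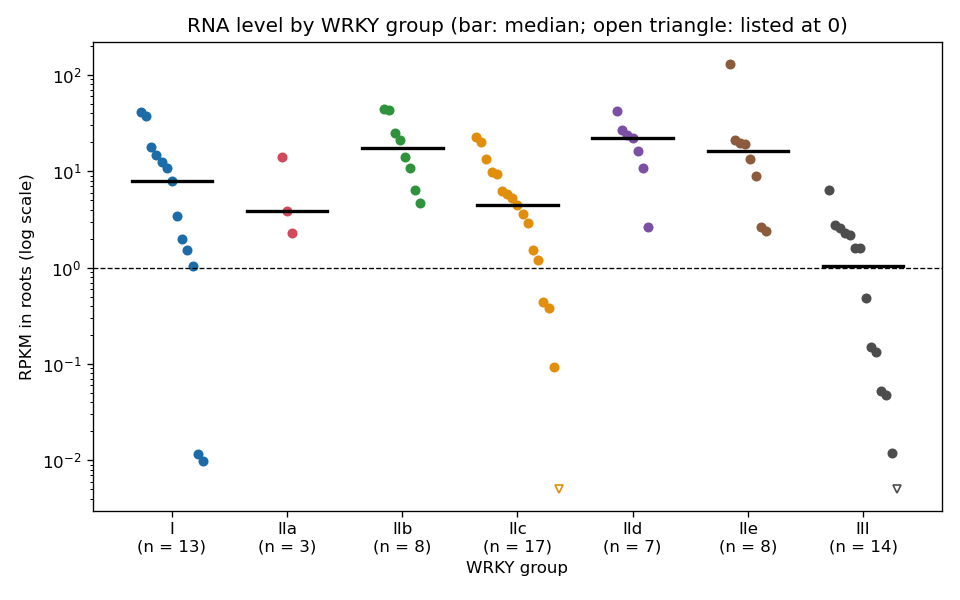
RPKM in roots (vertical axis, log scale) of each WRKY gene by group, with black bars for the group medians, open triangles for genes listed at 0 and a dashed line at 1 RPKM. Group IId has the highest median at 22.3 RPKM and group III the lowest at 1.04 RPKM.

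Group IIa holds the 3 leucine zipper proteins WRKY18, WRKY40 and WRKY60, which form complexes with themselves and with each other and act on defence and on abscisic acid responses. In roots their levels were unequal. WRKY60 was listed at 14.1 RPKM (13.5 to 14.6), WRKY40 at 3.88 RPKM (3.57 to 4.20) and WRKY18 at 2.30 RPKM (2.11 to 2.50). The intervals of the 3 genes did not overlap, and WRKY60 was 6.12-fold above WRKY18 (counting interval of the ratio 5.58 to 6.72).

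Group III contains regulators of salicylic acid signalling and leaf senescence. Of its 14 genes 7 (50%) were expressed, beside 56% of all listed genes and 68.4% of nuclear protein-coding genes. WRKY38 and WRKY62 were among those that were not, with 0.133 and 0.0519 RPKM. The expressed genes named next were chosen after their values were seen. WRKY53, an early activator of senescence, had 2.80 RPKM (2.56 to 3.05), and WRKY70, the node between salicylic acid and jasmonate responses, had 2.55 RPKM (2.32 to 2.80). WRKY41, a regulator of seed dormancy, had 2.18 RPKM, and WRKY46 and WRKY30 both had 1.60 RPKM. The exons of WRKY41 overlapped those of its neighbour on the opposite strand, AT4G11080 (16.6 RPKM), over 41.7% of their bases, and those of WRKY53 overlapped AT4G23800 (20.9 RPKM) over 20.5%. Both neighbours encode HMG-box proteins. Whether strand was used in counting is not given in the sources used here, so the levels of WRKY41 and WRKY53 are uncertain. The same holds for WRKY69, with 21.1% of its exon bases in overlap, and to a lesser degree for the other 9 of the 12 members that overlap a gene on the opposite strand.

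The proteins differ at the DNA-binding heptapeptide itself. The annotated coding sequences hold 1 copy in 58 members and 2 copies in 12 members. Members with 2 copies had a median of 9.39 RPKM with 11 of 12 expressed. Members with 1 copy had a median of 4.97 RPKM with 46 of 58 expressed. Of nuclear protein-coding genes 68.4% were expressed, and the difference by copy number was not tested. Of the 82 copies, the codon for the sixth residue was CAA in 50 and CAG in 29, both glutamine codons, and the lysine codon AAG in 3. The latter belong to WRKY50, WRKY51 and WRKY59, which carry WRKYGKK in place of WRKYGQK. The coding sequence around the heptapeptide is shown for these 3 genes beside WRKY65, the highest member, both domains of WRKY33 and WRKY64, which was listed at 0, with the codons of the heptapeptide in capitals. All are TAIR10.1 sequences on the coding strand, at chr1:10236907-10236957 (WRKY65, plus strand), chr2:16109343-16109393 and chr2:16109967-16110017 (WRKY33, plus strand), chr5:9147564-9147614 (WRKY50, minus strand), chr5:25908849-25908899 (WRKY51, plus strand), chr2:9335747-9335797 (WRKY59, minus strand) and chr1:24834072-24834122 (WRKY64, plus strand).
WRKY65: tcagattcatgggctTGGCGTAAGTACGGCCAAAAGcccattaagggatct
WRKY33, first domain: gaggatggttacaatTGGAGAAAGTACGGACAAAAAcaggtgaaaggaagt
WRKY33, other domain: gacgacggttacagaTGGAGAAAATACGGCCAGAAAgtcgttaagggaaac
WRKY50: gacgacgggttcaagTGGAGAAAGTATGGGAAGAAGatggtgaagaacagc
WRKY51: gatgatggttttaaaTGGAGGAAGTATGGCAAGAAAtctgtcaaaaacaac
WRKY59: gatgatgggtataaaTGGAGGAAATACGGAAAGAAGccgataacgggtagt
WRKY64: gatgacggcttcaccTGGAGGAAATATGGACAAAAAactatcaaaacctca

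The 3 genes with the altered heptapeptide were found at different levels. WRKY51 had 5.88 RPKM (5.44 to 6.35), WRKY50 had 2.92 RPKM (2.63 to 3.23) and WRKY59 had 0.445 RPKM (0.331 to 0.584), with no overlap between the intervals. WRKY50 and WRKY51 mediate repression of jasmonate signalling by salicylic acid. Another variant was found in WRKY19, in which the first of the 2 copies reads WQKYGQK and the other WRKYGQK.

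WRKY19, WRKY16 and WRKY52 are fusions in which a WRKY domain is joined to an immune receptor of the nucleotide-binding, leucine-rich repeat type, and WRKY52 is the receptor RRS1, known from immunity to bacteria. Their annotated proteins of 1895, 1372 and 1288 residues are the longest of the family. All were expressed below the family median of 5.57 RPKM, while the median of all listed genes was 2.21 RPKM. The levels were 1.51 RPKM (1.42 to 1.60) for WRKY19, 2.42 RPKM (2.29 to 2.55) for WRKY16 and 2.30 RPKM (2.18 to 2.41) for WRKY52. The ratio of WRKY16 to WRKY52 was 1.05, with a counting interval of 0.976 to 1.13 that contains equal levels.

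The members described here for a role in phosphate nutrition, WRKY45, WRKY75, WRKY42 and WRKY6, were chosen after their values were seen, and 81.4% of the family was expressed in any case. WRKY45 had 22.8 RPKM (22.1 to 23.6), WRKY75, which is induced by phosphate starvation and restrains lateral root and root hair growth, had 20.2 RPKM (19.3 to 21.1), and WRKY42, an activator of PHT1;1 and repressor of PHO1, had 6.41 RPKM (6.12 to 6.71), beside the 44.9 RPKM of WRKY6. The genes on which these factors are known to act were abundant, with 204 RPKM for PHT1;1, which has a near-identical neighbouring copy and is therefore uncertain, and 110 RPKM for PHO1, which loads phosphate into the xylem. Phosphate supply was not varied among these samples, and whether the roots were short of phosphate was not tested. WRKY23, an auxin-responsive factor of root growth and flavonol synthesis, was listed at 6.27 RPKM.

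WRKY44, known as TTG2, acts with the epidermal complex that sets trichome and hair cell patterns, and was listed at 1.96 RPKM (1.79 to 2.15). All 6 genes of epidermal patterning listed beside it were above 1 RPKM, as were 68.4% of nuclear protein-coding genes. They ranged from 2.12 RPKM for EGL3 and 2.19 RPKM for GL2, over 6.55 RPKM for TTG1 and 6.59 RPKM for GL3, to 14 RPKM for CPC and 22.6 RPKM for WER.

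Signalling genes upstream of WRKY factors in immunity were expressed where a listed name could be matched, as were 68.4% of nuclear protein-coding genes. Of the 7 genes chosen from the flagellin MAP kinase cascade, FLS2 could not be matched to a listed name. The other 6 ranged from 11.5 RPKM for MEKK1 to 65.2 RPKM for MPK6. MPK3 and MPK4 had 42.1 and 42 RPKM, near WRKY33 at 41.1 RPKM. WRKY29 and WRKY22, which act downstream of this cascade, had 19.9 and 2.67 RPKM. Of 5 partner proteins, all were above 1 RPKM, with 1.09 and 2.03 RPKM for SIB2 and SIB1, sigma factor binding proteins that join WRKY33, and 7.45 RPKM for MKS1, which links it to MPK4. HDA19, a histone deacetylase that interacts with WRKY38 and WRKY62, had 37.3 RPKM, and NPR1, the salicylic acid receptor, had 18.8 RPKM. The proposed targets in defence ranged from below to above 1 RPKM. PAD3, the last enzyme of camalexin synthesis, had 11.6 RPKM, and CYP71A13 of the same pathway had 0.517 RPKM. ICS1, a gene of the salicylic acid pathway, had 3.14 RPKM. The flagellin-induced kinase gene FRK1 had 1.04 RPKM and the defence marker PR1 had 0.0111 RPKM. Relatives outside this list were higher, with 64.4 RPKM for CYP71A12 and 31.2 RPKM for ICS2. The values of CYP71A13 and ICS1 alone therefore do not give the level of a pathway step.

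Closely related members were compared through their best protein matches. Reciprocal best matches joined 40 of the 70 genes into 20 pairs, with protein identities of 38.9% to 75% over the aligned part. Both genes were expressed in 16 pairs, a single gene in 2 pairs and neither gene in 2 pairs. Of all 70 members 81.4% were expressed in any case, and agreement within pairs was not tested. The ratio within a pair was under 2 in 7 pairs and at least 5 in 6 of the 18 pairs in which both genes had reads. The median ratio over these 18 pairs was 2.53.

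Among the 9 pairs with at least 60% identity, 6 had genes at close levels. WRKY45 and WRKY75 (75% identity) had 22.8 and 20.2 RPKM, a ratio of 1.13 (1.07 to 1.20). Their identity covers 92 aligned residues, 63.45% of the shorter protein. WRKY17 and WRKY11 (74.4% over 328 residues) had 42.5 and 27.1 RPKM, a ratio of 1.57 (1.51 to 1.62). WRKY3 and WRKY4, which act together against necrotrophic fungi, had 17.8 and 12.4 RPKM, WRKY14 and WRKY35 had 19.3 and 13.3 RPKM, and WRKY24 and WRKY56 had 13.3 and 9.35 RPKM, with ratios between 1.42 and 1.45. WRKY16 and WRKY52, the receptor fusions, are the sixth of these pairs. The exceptions were WRKY39 and WRKY74 (74.1% identity), with 23.98 and 2.67 RPKM and a ratio of 8.97 (8.16 to 9.89), WRKY31 and WRKY42 (70.6%), with 20.9 and 6.41 RPKM and a ratio of 3.27 (3.10 to 3.45), and WRKY63 and WRKY64 (73.97%), at 0.151 and 0 RPKM. The value of WRKY63 was 5.83-fold the floor of 3 reads of WRKY64. That figure leaves out the counting error of WRKY63, whose interval was 0.088 to 0.236 RPKM.

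Ratios of at least 5 with reads in both genes came mostly from pairs under 60% identity, with WRKY39 and WRKY74 the only exception. Wide ratios under 60% identity included WRKY60 and WRKY18 of group IIa (59.7% identity), with the ratio of 6.12 given above. WRKY2, which sets the polarity of the zygote, had 3.47 RPKM beside 0.00989 RPKM for WRKY34, its partner in pollen (56.8% identity), a ratio of 351 with a counting interval of 97.0 to 2903 that reflects the 2 reads of WRKY34. The value of WRKY23 was 383-fold the floor of 3 reads of WRKY68 (38.9%), again without the counting error of WRKY23. WRKY65 and WRKY69 (44.9%) differed 6.16-fold, WRKY29 and WRKY22 (39.3%) 7.46-fold, and WRKY72 and WRKY61 (46.4%) 5.37-fold.

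**Figure D4:**
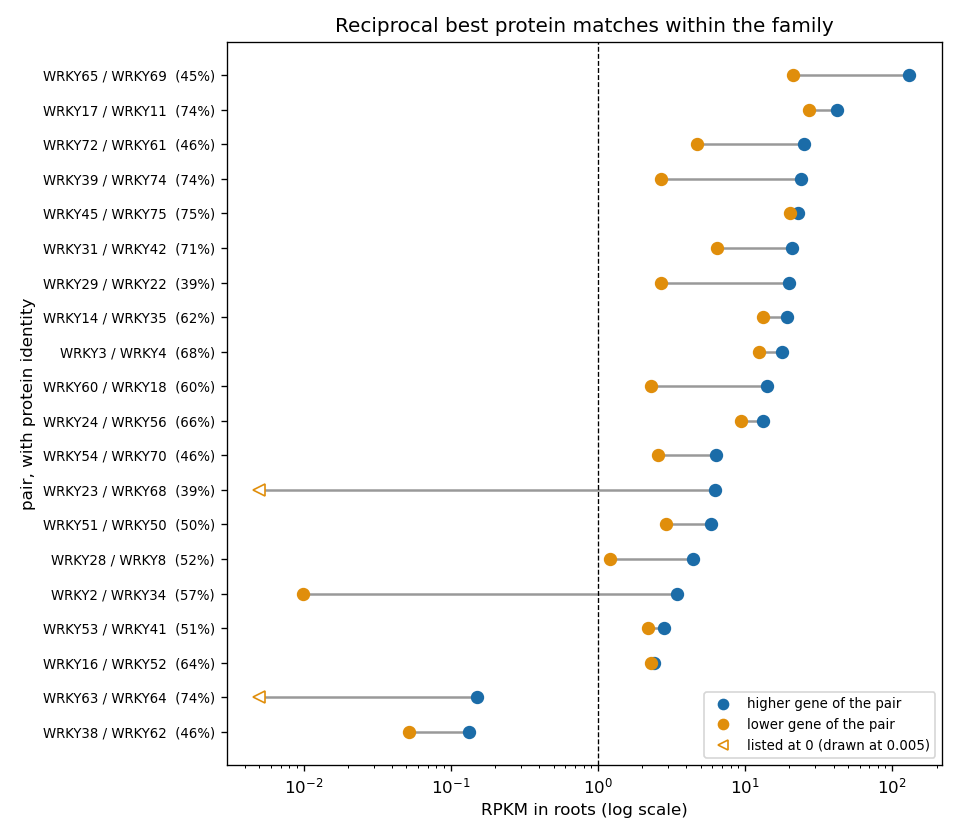
RPKM in roots (horizontal axis, log scale) of both genes of the 20 reciprocal best protein matches, joined by a line, with protein identity in brackets, open triangles for genes listed at 0 and a dashed line at 1 RPKM. Both genes lie above 1 RPKM in 16 pairs, where 81.4% of all 70 members are above 1 RPKM. The widest gaps are those of WRKY2 with WRKY34 and WRKY23 with WRKY68.

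Since WRKY proteins are known to bind W-boxes in promoters of their own family, the 250 bases before the annotated start of each member were searched for TTGACC and TTGACT on both strands. At least 1 W-box was found in 24 of 70 members (34.3%), beside 28.4% of the 27443 windows of nuclear protein-coding genes, and at least 2 in 10 members (14.3%), beside 6.18%. The median level was 12.5 RPKM for the 24 members with a W-box and 4.28 RPKM for the 46 without, with 20 and 37 of them expressed. This difference was not tested, and the members compared were not matched for group. The same split over the windows of all nuclear protein-coding genes is not given here. The highest gene, WRKY65, had 0 W-boxes in this window. WRKY33 had 2, and WRKY30, a gene of oxidative stress responses at 1.60 RPKM, had 3, the highest number in the family. A match is a run of letters and does not show binding. The 3 windows are printed 5′ to 3′ on the strand of the gene with W-boxes in capitals (AGTCAA and GGTCAA are the element on the other strand), to show the highest member without the element beside members that hold it. They lie at chr1:10236087-10236336 (WRKY65, plus strand), chr2:16107985-16108234 (WRKY33, plus strand) and chr5:8154711-8154960 (WRKY30, minus strand) of TAIR10.1.
WRKY65: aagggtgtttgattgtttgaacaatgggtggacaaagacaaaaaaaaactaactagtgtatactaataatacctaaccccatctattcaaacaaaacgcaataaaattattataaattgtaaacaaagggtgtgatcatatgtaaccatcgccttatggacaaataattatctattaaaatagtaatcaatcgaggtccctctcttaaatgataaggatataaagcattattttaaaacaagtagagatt
WRKY33: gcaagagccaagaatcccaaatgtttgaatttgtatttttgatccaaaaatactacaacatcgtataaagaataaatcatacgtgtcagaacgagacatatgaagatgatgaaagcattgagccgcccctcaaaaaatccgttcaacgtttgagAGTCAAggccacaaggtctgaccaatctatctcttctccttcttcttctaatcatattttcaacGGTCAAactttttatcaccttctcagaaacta
WRKY30: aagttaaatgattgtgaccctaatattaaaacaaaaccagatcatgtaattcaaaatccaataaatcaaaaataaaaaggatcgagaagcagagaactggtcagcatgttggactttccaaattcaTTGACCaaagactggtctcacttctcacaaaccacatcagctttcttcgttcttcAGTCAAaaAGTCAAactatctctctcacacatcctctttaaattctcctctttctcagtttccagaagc

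A pair of genes that the annotation gives a WRKY number but that the table lists under another name lie outside the 70 members. WRKY1, listed as ZAP1 (AT2G04880), had 11.4 RPKM (10.97 to 11.8). WRKY12, listed by its locus AT2G44745, is known from the pith of stems, where it represses secondary wall formation, and was listed at 0, which allows up to 0.0247 RPKM.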

How the data were processed

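RNA of 14-day-old roots was sequenced with single-end reads of 61 bp in 3 libraries. The authors aligned the reads to TAIR10, counted reads per gene with HTSeq and computed the deposited RPKM values with edgeR. The submitters' processing notes name STAR as the aligner, while the methods name TopHat2 in a passage that also covers leaf data from elsewhere. Versions, annotation release, use of strand and whether the single column combines the 3 libraries or holds 1 of them are not given in the sources used here. With a single column, no test between groups was possible.

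Names were matched to TAIR10.1 (RefSeq) by locus, symbol or synonym (32532 of 33446, and 70 of 70 members). Library size was fitted to the spacing of low values, a step tested on simulated data. Proteins were translated from annotated coding sequences for heptapeptides and pairs (blastp 2.17.0, reciprocal best matches). Ratios of pairs with reads in both genes carry 95% exact binomial intervals conditional on the summed reads. Group membership follows the usual classification of the family, from background knowledge. Members and lists were chosen with earlier results of these data known. Named in full were the 12 highest members, those at 0, group IIa, altered heptapeptides and pairs from 60% identity. Other members were added for their known roles, after values were seen. Alternatives were thresholds of 0.5 and 2 RPKM, added WRKY names, protein-coding background, removal of overlapping genes, TPM scaling and grouping by heptapeptide number. Python 3.11.15 with numpy 2.4.6, pandas 2.3.3, scipy 1.17.1, Biopython 1.88 and matplotlib 3.10.9 was used.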

Additional observations from a re-analysis of the deposited data

How the results depend on the processing

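Of 17 alternatives, 13 left their value within the limits set for it (counts within 1.5-fold, medians within the 95% order-statistic interval over members). The share of all listed genes was held to its 95% Wilson interval, which is narrow for 33446 genes. Limits for counts and medians are wide, and the TPM median was held to limits in RPKM. A value within them is therefore not shown to be unchanged. The share of all listed genes above the threshold moved to 59.6% at 0.5 RPKM, 50.9% at 2 RPKM, and 68.4% among protein-coding and among nuclear protein-coding genes. The number of expressed WRKY genes was 57 at 0.5 RPKM and after rescaling to TPM, 50 at 2 RPKM, 58 with the WRKY genes listed under another name, and 46 of the 57 members that overlap no other gene. The median was 6.27 RPKM for those 57 members, 6.08 RPKM without the zeros, 9.35 RPKM among expressed members and 9.14 TPM after rescaling, which multiplies every value by 1.64. No paired analysis was possible because the table holds a single column of a single condition, and leaving out each replicate could not be run for the same reason. Depth limits the 5 lowest members, which rest on at most 2 reads each.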
